A study of Mus musculus with 4 samples.

Results

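The tumour necrosis factor (TNF) superfamily ligands and receptors were followed in 32Dclone3, a mouse myeloid cell line grown with interleukin-3, with and without overexpression of miR-125b. The members were all genes of the deposited tables whose symbol begins with Tnfsf or Tnfrsf, together with Tnf, Lta, Ltb, Ltbr, Fas and Fasl, leaving out Tnfsf4. This gave 37 of 21506 genes, 15 of them ligands and 22 receptors, each read from its transcript row with the longest exon length. The control cells were stably infected with the XZ virus, and the miR-125b cells with XZ-miR-125b. Each condition had 2 libraries, made from infections with different virus supernatants, and all were poly(A)-enriched RNA of a single line. Levels are RPKM, reads scaled to exon length and to the reads of the library.

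Ligands of this family are mostly trimeric membrane proteins, many of which can be shed, and each engages 1 or more receptors with cysteine-rich extracellular repeats. Receptors with a cytoplasmic death domain, such as Fas and Tnfrsf1a, can assemble caspase-activating complexes or, through Tradd and Ripk1, activate NF-kB. Most of the others bind TRAF adaptors directly and mainly activate NF-kB and MAP kinases. Tnfrsf11b, Tnfrsf22 and Tnfrsf23 lack a signalling tail. In the blood system the family is known for control of survival, co-stimulation of lymphocytes, lymphoid organ formation and osteoclast formation.

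Because miR-125b was the agent overexpressed, its sequence is shown with the sites that pair with its seed in the members' 3′ UTRs. The mature miRNA, from RefSeq, is given with the seed (bases 2 to 8) in capitals. The sites are 22 bases of the 3′ UTR that end at the named match, with only the bases of that match in capitals. They are read 5′ to 3′ from GENCODE M21 transcripts. An 8mer is CTCAGGGA, a 7mer-m8 is CTCAGGG without the following A, a 7mer-A1 is TCAGGGA and a 6mer is TCAGGG, searched on the transcript strand only.

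mmu-miR-125b-5p: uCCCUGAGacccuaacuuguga

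Tnfsf14 8mer: gagcacctacattcCTCAGGGA

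Tnfrsf1b 8mer: ttccttcagggaatCTCAGGGA

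Tnf 7mer-m8: gaaaggggattatggCTCAGGG

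Tnfrsf1a 7mer-m8: gcccaagccaagcttCTCAGGG

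These sites lie at chr17:57190030-57190051, chr4:145215057-145215078, chr17:35200014-35200035 and chr6:125362297-125362318 of GRCm38, in the order shown, on the minus strand for all but Tnfrsf1a. Tnfsf14 and Tnfrsf1b were the members with an 8mer, and Tnfrsf1b also held 2 7mer-A1 matches, of which 1 lies within the printed stretch, in lower case. A 7mer-m8 was the best match of Tnf, Tnfrsf1a and Lta. All 37 members had an annotated 3′ UTR. An 8mer or 7mer-m8 was present in 5 of them (13.5%), against 13.7% of the 19688 genes with a 3′ UTR. A further 3 members had a 7mer-A1 as their best match and 4 a 6mer. Of the 20 members tested below, 4 held an 8mer or 7mer-m8 (20%), against 15.6% of the 9938 tested genes with a 3′ UTR. A match is a description of the sequence and not evidence that it is bound.

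Of the 37 members, 20 reached 1 RPKM in at least 2 libraries and were tested, 8 ligands and 12 receptors. The tested ligands were Ltb, Tnf, Tnfsf8, Tnfsf9, Tnfsf11, Tnfsf13, Tnfsf14 and the read-through row Tnfsf12-Tnfsf13. The tested receptors were Fas, Ltbr, Tnfrsf1a, Tnfrsf1b, Tnfrsf9, Tnfrsf11a, Tnfrsf12a, Tnfrsf13b, Tnfrsf14, Tnfrsf18, Tnfrsf21 and Tnfrsf26. Of these, 18 were at 1 RPKM or more in all 4 libraries. Tnfsf13 and Tnfsf12-Tnfsf13 reached it in 3, both miR-125b libraries and control replicate 2, so their passing partly rested on the group in which they were high.

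**Figure D1:**
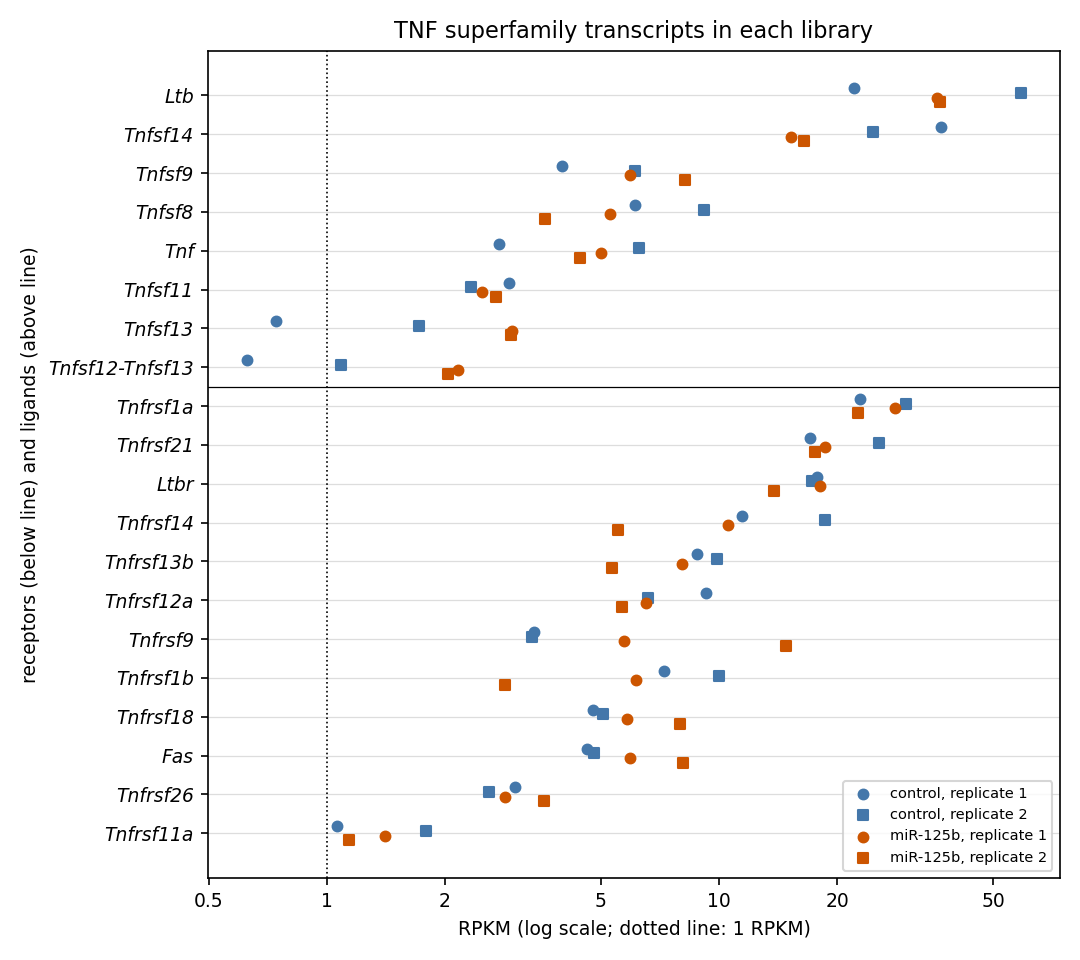
RPKM of the 20 tested members in each library, on a log axis, with ligands above and receptors below the horizontal line. Blue points are control and orange points miR-125b libraries, circles replicate 1 and squares replicate 2. The points of Tnfsf14, Tnfsf8, Tnfrsf14 and Tnfrsf1b lie lower in both miR-125b libraries, and those of Tnfrsf9 and Tnfsf13 higher.

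Libraries held between 7726635 and 9479294 recovered reads over 1 row per gene. Of 10 myeloid genes 9 passed the filter, with Myb between 108.3 and 124.3 RPKM and Ctsg between 375.1 and 673.7 RPKM, while Kit was at or under 0.0186 RPKM. Only Mpo and Csf2rb of that list had groups that did not overlap, a separation found in 42.8% of all tested genes. Mpo, the myeloperoxidase gene, stood at 39.1 and 54.2 RPKM in control against 273.0 and 105.3 with miR-125b, and Csf2rb, a cytokine receptor subunit gene, at 69.3 and 59.9 against 33.8 and 50.1. Their part in the members' differences was not tested. Control replicate 2 stood apart. The signed difference, control replicate 2 minus control replicate 1, rose with GC content (rho 0.476 by Spearman's method over tested genes). This rho is a description, since genes share these libraries. In 14 of the 20 tested members (70.0%) control replicate 2 was above control replicate 1, against 48.5% of all tested genes. The median absolute log2 difference between the controls was 0.42 in the tested members and 0.29 in all tested genes. Between the miR-125b libraries it was 0.27 in the tested members and 0.15 in all tested genes.

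Among the 20 tested members the largest log2 fold changes ran in both directions. Tnfsf14, Tnfrsf1b, Tnfrsf14 and Tnfsf8 were lower, with mean RPKM in control cells between 1.73 and 1.94 times that in miR-125b cells. Tnfrsf9, Tnfsf13 and the read-through row Tnfsf12-Tnfsf13 were higher, with mean RPKM between 2.40 and 3.06 times that of control cells. None of these differences passed the test over all genes. Fewer cells with a transcript and less of it per cell cannot be told apart in such libraries.

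The test was limma's moderated linear model on log2(RPKM + 1), adjusted over 10310 genes by the Benjamini-Hochberg method. At an adjusted p under 0.05 it called 0 genes (0%) and 0 members, and the smallest value among members was 0.423. An unadjusted p under 0.05 was given to 7 of the 20 tested members, against 967 of all tested genes (9.38%). Of the 7, 3 were higher, where the background was 4.17%, and 4 were lower, where it was 5.21%. The 3 higher rows stand for 2 loci, since Tnfsf13 and Tnfsf12-Tnfsf13 share exons and reads. With limma-voom on the recovered reads, 0 members were called, and 7 again passed without adjustment. In limma's test this number was 2 without a filter on low values. The share of all genes at that p in the unfiltered fit is not given here, so these counts were not compared. Which members passed depended on the library left out. Without control replicate 2, Tnfrsf9, Tnfrsf1b, Tnfrsf14 and Tnfsf8 no longer passed, and Ltb, Tnf, Tnfrsf12a and Tnfsf9 did. Leaving out control replicate 1 removed Tnfrsf9 and Tnfsf12-Tnfsf13 and added Ltb and Tnfrsf21. With miR-125b replicate 2 left out, Tnfrsf9, Tnfrsf1b, Tnfrsf14, Tnfsf8 and Tnfsf12-Tnfsf13 no longer passed. Without miR-125b replicate 1, Tnfsf12-Tnfsf13 did not pass. The share of all tested genes at that p moved as well, so counts from these fits were not compared.

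In 11 of the 20 tested members both miR-125b libraries lay on 1 side of both control libraries, compared with 42.8% of all tested genes. The members were 5 with higher values (22.3% of all tested genes) and 6 with lower values (20.4%). With 2 libraries against 2, an exact permutation test of a single gene cannot go below p = 0.333, so such a separation is a description only. The median log2 fold change was -0.030 over the 20 tested members and 0.024 over all tested genes, with 9 members above 0 and 11 below.

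**Figure D2:**
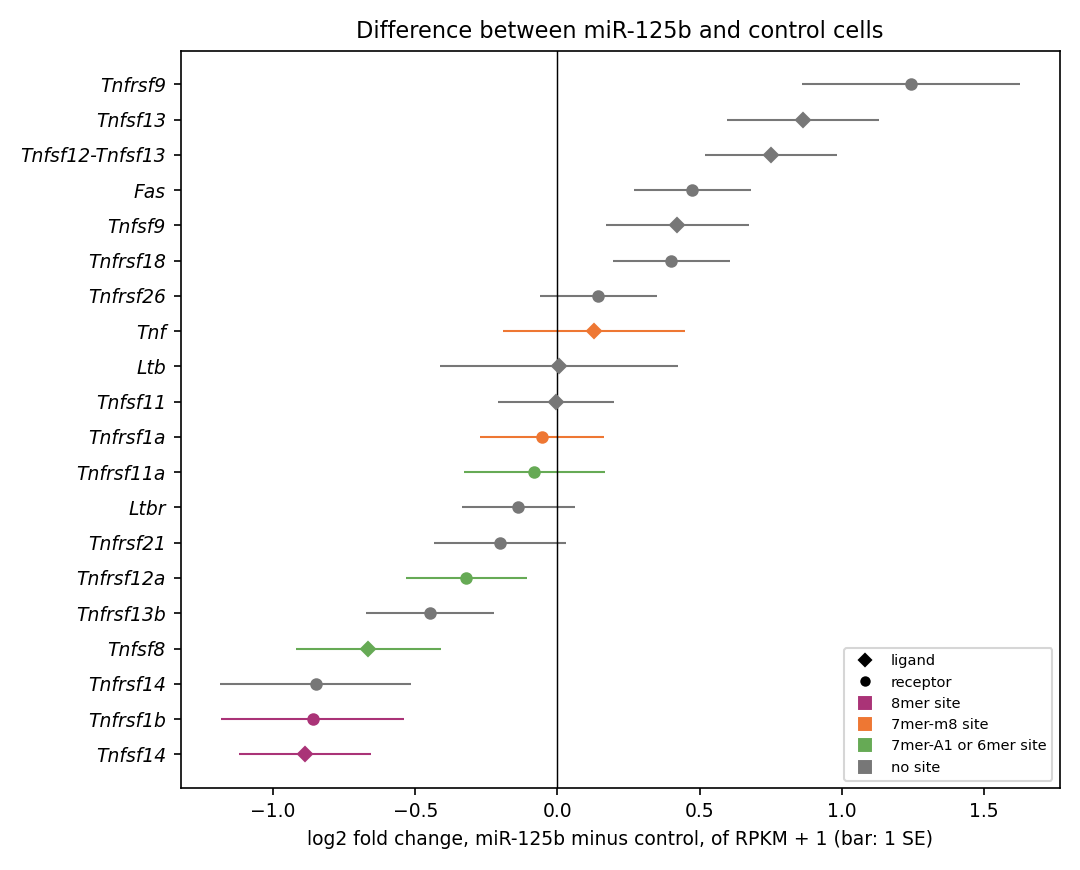
Log2 fold change (miR-125b minus control, of RPKM + 1) of the 20 tested members, with a bar of 1 SE from limma. Diamonds are ligands and circles receptors, and the colour gives the best miR-125b match in the 3′ UTR. Values run from -0.89 for Tnfsf14 to 1.24 for Tnfrsf9, and the 2 members with an 8mer lie at the low end. Tnfrsf14, with no match, lies beside them at -0.85, and Tnf and Tnfrsf1a, with a 7mer-m8, lie at 0.13 and -0.054.

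Among the ligands, Tnfsf14 had the smallest p. It encodes LIGHT, which binds the herpesvirus entry mediator (HVEM, encoded by Tnfrsf14) and the lymphotoxin beta receptor. Tnfsf14 (NM_019418, chromosome 17, 57328915 to 57333609 in mm9) stood at 36.7 and 24.7 RPKM in control against 15.2 and 16.4 with miR-125b. Both miR-125b libraries were below both controls, and the controls lay further apart than the miR-125b libraries. The means were 30.7 ± 8.48 and 15.8 ± 0.847 RPKM (SD, n = 2 each), and the log2 fold change was -0.89 ± 0.23 (SE, adjusted p = 0.423 in limma's test). With each library left out it ran from -1.16 without control replicate 2 to -0.61 without control replicate 1.

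Tnfsf8 encodes the CD30 ligand. It was at 6.12 and 9.17 RPKM without and 5.26 and 3.60 RPKM with miR-125b, so that the groups did not overlap although control replicate 1 and miR-125b replicate 1 differed by less than the replicates of either group. Its log2 fold change was -0.67 ± 0.26 (SE, adjusted p = 0.505 in limma's test). It was -0.41 when control replicate 2 was left out and -0.44 when miR-125b replicate 2 was. Its 3′ UTR held a 7mer-A1 and a 6mer.

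Tnfsf13 encodes APRIL, a ligand known for the survival of plasma cells. Its row (NM_023517, chromosome 11, 69496079 to 69499056) held 14 and 30 control reads against 63 and 58 miR-125b reads, or 0.743, 1.72, 2.97 and 2.94 RPKM in the same order. The miR-125b libraries were close to each other and above both controls, which lay further apart. The log2 fold change was 0.86 ± 0.27 (SE, adjusted p = 0.464 in limma's test), and 0.54 when control replicate 1 was left out. The adjoining gene Tnfsf12, which encodes TWEAK, had 4, 0, 0 and 1 reads in its own row. The read-through row Tnfsf12-Tnfsf13 held 15, 24, 58 and 51 reads, no more than the Tnfsf13 row in 3 of the 4 libraries, and most reads can belong to either row. It is therefore not a separate observation.

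Ltb, which encodes lymphotoxin beta, was the ligand with the highest mean level. It was at 22.04 and 58.9 RPKM in control cultures, and 36.0 and 36.5 in miR-125b cultures. Both miR-125b libraries fell between the controls, and the log2 fold change was 0.0048 ± 0.42 (SE, adjusted p = 0.996 in limma's test). It turned from 0.69 without control replicate 2 to -0.68 without control replicate 1. Tnf, the founding member and a mediator of inflammation, showed the same arrangement at a lower level, with 2.75 and 6.25 RPKM in control against 4.99 and 4.42 with miR-125b. Its log2 fold change was 0.13 ± 0.32 (SE), and it was -0.35 without control replicate 1.

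Tnfsf9, the ligand of the receptor encoded by Tnfrsf9, was at 3.98 and 6.11 RPKM without and 5.93 and 8.18 RPKM with miR-125b. The groups overlapped, and the log2 fold change was 0.42 ± 0.25 (SE, adjusted p = 0.618 in limma's test), or 0.16 when control replicate 1 was left out. Tnfsf11, which encodes RANKL, the osteoclast differentiation factor, was at 2.91 and 2.33 RPKM in control cultures, and 2.48 and 2.71 in miR-125b cultures. Both miR-125b libraries lay between the controls, with a log2 fold change of -0.0057 ± 0.20 (SE).

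Among the receptors with a death domain, the abundant ones had overlapping groups. Tnfrsf1a, the main signalling receptor for TNF and the receptor with the highest mean level, stood at 22.9 and 30.0 RPKM in control against 28.05 and 22.7 with miR-125b. Its log2 fold change was -0.054 ± 0.22 (SE, adjusted p = 0.936 in limma's test), and its 3′ UTR held a 7mer-m8. Tnfrsf21, which encodes the death receptor DR6, was at 17.1 and 25.6 RPKM without and 18.6 and 17.6 RPKM with miR-125b. Its log2 fold change was -0.20 ± 0.23 (SE). Control replicate 2 was the highest library for both of these receptors.

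Fas, the receptor through which Fas ligand triggers apoptosis, was higher in both miR-125b libraries. It was at 4.61 and 4.80 RPKM in control cultures, and 5.92 and 8.09 in miR-125b cultures, with a log2 fold change of 0.47 ± 0.21 (SE, adjusted p = 0.534 in limma's test). The controls were nearly equal, and the miR-125b libraries differed from each other by more than the lower of them differed from the controls. With miR-125b replicate 2 left out the log2 fold change was 0.28. The tables also held a shorter Fas transcript (NM_001146708, 555 bases of exon against 1486), at 2.41 and 2.78 RPKM in control against 2.28 and 3.07 with miR-125b. Read from that row, the groups overlapped and the log2 fold change was 0.027. Fasl, its ligand, had 2 reads in miR-125b replicate 1 and 0 in the other libraries.

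Tnfrsf9, a TRAF-binding receptor, had the largest log2 fold change of the 20 tested members. It encodes a co-stimulatory receptor (CD137) known to be induced on activated lymphocytes and some myeloid cells. Tnfrsf9 (NM_011612, chromosome 4, 150294264 to 150320211 in mm9) was at 3.38 and 3.34 RPKM without and 5.72 and 14.9 RPKM with miR-125b, from 81, 74, 154 and 372 reads. The controls were almost equal and replicate 2 of the miR-125b cells was far above replicate 1. The log2 fold change was 1.24 ± 0.38 (SE, adjusted p = 0.464 in limma's test). It was 0.62 without miR-125b replicate 2 (adjusted p = 1.00). Without miR-125b replicate 1 it was 1.86 and Tnfrsf9 was called (adjusted p = 0.00244), in a fit that takes the remaining miR-125b library to vary as the controls do. The 3 Tnfrsf9 transcript rows gave ratios of means between 3.05 and 3.15.

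Tnfrsf1b encodes the second TNF receptor (TNFR2), which lacks a death domain. Tnfrsf1b (NM_011610, chromosome 4, 144802271 to 144836773) was at 7.23 and 9.98 RPKM in control cultures, and 6.13 and 2.84 in miR-125b cultures. The lower control and the higher miR-125b library were close, and replicate 2 of the miR-125b cells was the lowest. The log2 fold change was -0.86 ± 0.32 (SE, adjusted p = 0.505 in limma's test), -0.65 when control replicate 2 was left out and -0.42 when miR-125b replicate 2 was. Tnfrsf14, the HVEM gene, had the same order of libraries, at 11.5 and 18.7 RPKM in control against 10.6 and 5.54 with miR-125b. Its log2 fold change was -0.85 ± 0.34 (SE, adjusted p = 0.509 in limma's test), -0.52 when control replicate 2 was dropped and -0.44 when miR-125b replicate 2 was. Its 3′ UTR of 311 bases held no match.

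Tnfrsf13b, which encodes TACI, a receptor for APRIL and BAFF, was at 8.79 and 9.89 RPKM without and 8.03 and 5.34 RPKM with miR-125b. Tnfrsf12a, the TWEAK receptor, was at 9.25 and 6.61 RPKM in control cultures, and 6.50 and 5.66 in miR-125b cultures. Tnfrsf18, which encodes the co-stimulatory receptor GITR, was the opposite, at 4.78 and 5.07 RPKM in control against 5.82 and 7.96 with miR-125b. In all 3 the groups did not overlap, but the gap between the nearest libraries was smaller than the difference between the miR-125b replicates. Their log2 fold changes were -0.45, -0.32 and 0.40, with adjusted p of 0.572, 0.643 and 0.581 in limma's test. Leaving out miR-125b replicate 2 gave -0.19 for Tnfrsf13b and 0.20 for Tnfrsf18, and leaving out control replicate 1 gave -0.11 for Tnfrsf12a.

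Ltbr, the receptor for lymphotoxin alpha-beta and LIGHT, was at 17.8 and 17.3 RPKM without and 18.1 and 13.8 RPKM with miR-125b. Tnfrsf11a, which encodes RANK, was at 1.06 and 1.78 RPKM in control cultures, and 1.40 and 1.14 in miR-125b cultures, the lowest mean of the tested receptors. Tnfrsf26, a mouse receptor gene, was at 3.02 and 2.59 RPKM in control against 2.85 and 3.58 with miR-125b. The groups of these receptors overlapped, and their adjusted p were between 0.823 and 0.920 in limma's test.

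**Figure D3:**
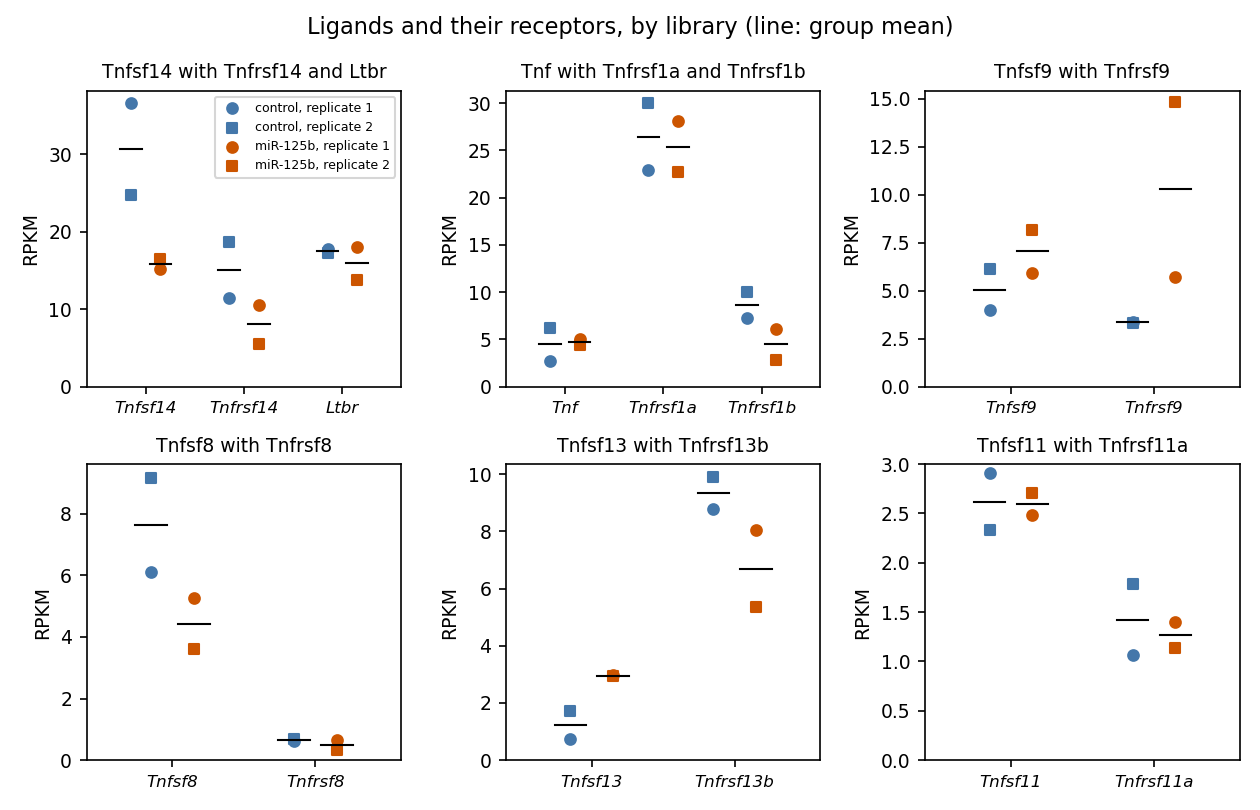
RPKM of 6 ligands and the receptors that bind them, by library, with each axis starting at 0. Blue points are control and orange points miR-125b libraries, circles replicate 1 and squares replicate 2, and short lines are group means. Tnfsf14 and Tnfrsf14 lie lower in miR-125b cells while Ltbr overlaps, and Tnfrsf1b lies lower while Tnf and Tnfrsf1a overlap.

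Of 16 ligand and receptor pairs known to bind each other, both partners were tested in 8. For LIGHT, the ligand and its receptor HVEM had lower means with miR-125b, while the means of the other receptor, Ltbr, were 17.5 ± 0.337 and 16.0 ± 3.04 RPKM (SD, n = 2 each). For TNF, the means of the ligand were 4.50 and 4.71 RPKM and those of Tnfrsf1a 26.4 and 25.4 RPKM, in control and miR-125b cells, beside 8.61 and 4.49 RPKM for Tnfrsf1b. For APRIL, the ligand was higher and TACI lower, at means of 9.34 ± 0.783 and 6.68 ± 1.90 RPKM. Differences between the partners' fold changes were not tested. Several receptors were present where the ligand was at or near 0, as with Fas beside Fasl, Tnfrsf12a beside Tnfsf12 and Tnfrsf18 beside Tnfsf18, which had 0 reads. Tnfsf8 was tested while its receptor Tnfrsf8 (CD30) was low but detected, between 0.325 and 0.673 RPKM, from 6 to 13 reads per library.

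The remaining 17 members did not reach the filter. Of these, 5 had 0 reads in all libraries, namely Tnfrsf11b, Tnfrsf17, Tnfrsf19, Tnfsf15 and Tnfsf18. A count of 0 allows up to 3 reads in a library, which for these genes is between 0.0408 and 0.356 RPKM (counting error only). Another 6 held between 1 and 9 reads in their highest library, namely Fasl (2 reads), Lta (2), Tnfrsf13c (3), Tnfrsf22 (8), Tnfsf12 (4) and Tnfsf13b (7). Lta, whose product combines with lymphotoxin beta, had at most 2 reads in a library, so its 7mer-m8 match could not be set beside a level.

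The 6 untested members with at least 10 reads in a library were Tnfsf10, Tnfrsf4, Tnfrsf8, Tnfrsf10b, Tnfrsf23 and Tnfrsf25. Tnfsf10, which encodes the death ligand TRAIL, was nearest to the filter, with 18 and 56 reads in control and 19 and 6 with miR-125b, and it passed 1 RPKM only in control replicate 2 (1.09 RPKM). Its receptor Tnfrsf10b was between 0.0750 and 0.421 RPKM. Tnfrsf4 was between 0.308 and 0.834 RPKM, Tnfrsf25 between 0.1804 and 0.741 RPKM, and Tnfrsf23, a decoy receptor gene, between 0.145 and 0.298 RPKM. The groups overlapped in 5 of these 6 members, and in Tnfsf10 both miR-125b libraries were below both controls. The nearest libraries of Tnfsf10, control replicate 1 and miR-125b replicate 1, held 18 and 19 reads and were separated only by library scaling.

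Several members are neighbours, with distances given here in mm9. Chromosome 4 holds 9 of them and chromosome 17 holds 7. On chromosome 17, Ltb and Tnf are 3.09 kb apart, and Tnf and Lta 1.17 kb. Ltb and Tnf each had control replicate 2 highest and control replicate 1 lowest, while Lta was hardly detected. Tnfsf9 and Tnfsf14, 81.7 kb apart, had log2 fold changes of 0.42 and -0.89. On chromosome 6, Ltbr and Tnfrsf1a are 35.9 kb apart and both had overlapping groups. On chromosome 4, Tnfrsf1b is 22.1 kb from Tnfrsf8 and Tnfrsf18 is 9.75 kb from Tnfrsf4, in each case an expressed receptor beside one that did not reach the filter.

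Family members that carry other symbols were listed separately. Of 9 such genes, Cd27, Relt and Eda2r were tested, and 0 were called or had an unadjusted p under 0.05 by limma or by limma-voom, against 9.38% of all tested genes. Cd27, a co-stimulatory receptor, averaged 1.06 ± 0.0591 RPKM without and 1.73 ± 0.310 with miR-125b (SD, n = 2 each), and its groups did not overlap. Relt was at 13.3 ± 3.07 and 10.3 ± 1.22 RPKM, and Eda2r, the receptor for an ectodysplasin isoform, at 6.08 ± 1.08 and 4.75 ± 0.814 RPKM. Their highest adjusted p was 0.666.

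The adaptors and proximal signalling genes were also present. Of 42 listed symbols 41 matched a row and 39 were tested. Over all genes 0 were called by limma or limma-voom. At an unadjusted p under 0.05 there were 4 by either (in limma 3 lower and 1 higher), a share near the background of 9.38%. Traf6, an adaptor and ubiquitin ligase that also serves Toll-like and interleukin-1 receptors, was at 10.6 and 9.24 RPKM without and 6.35 and 4.92 RPKM with miR-125b. Its log2 fold change was -0.72 ± 0.20 (SE, adjusted p = 0.439 in limma's test). Its 3′ UTR held an 8mer, besides a 7mer-m8 and a 6mer. Cyld, a deubiquitinase gene named here after its values were seen, was the other tested gene of this list with an 8mer, and it was higher in both miR-125b libraries. It measured 5.61 and 6.44 RPKM in control against 6.49 and 7.76 with miR-125b. The log2 fold change of Cyld was 0.21 ± 0.19 (SE, adjusted p = 0.723 in limma's test). Both 8mers are shown because their genes lay in opposite directions, at chr2:101698825-101698846 for Traf6 and chr8:88751016-88751037 for Cyld, of GRCm38 and on the plus strand.

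Traf6 8mer: tttggagtctagttCTCAGGGA

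Cyld 8mer: ggcagaggacagggCTCAGGGA

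An 8mer or 7mer-m8 was present in 6 of the 39 tested genes of the list (15.4%), against 15.6% of the 9938 tested genes with a 3′ UTR. Madd, whose product binds the death domain of Tnfrsf1a, was at 10.97 and 13.0 RPKM in control cultures, and 7.03 and 7.77 in miR-125b cultures, and it held a 7mer-m8. Tradd, the adaptor of the same receptor, was at 14.0 and 16.4 RPKM in control against 10.2 and 10.6 with miR-125b, with no match in its 3′ UTR. The higher gene was Traf3, a negative regulator of non-canonical NF-kB signalling whose 3′ UTR held a 7mer-A1, at 14.9 and 12.7 RPKM without and 18.2 and 21.5 RPKM with miR-125b. The log2 fold changes were -0.62 for Madd, -0.50 for Tradd and 0.49 for Traf3, with adjusted p between 0.464 and 0.509 in limma's test. The most abundant listed genes were the protease gene Adam10, at 100.4 ± 1.18 and 120.3 ± 21.7 RPKM, Tab2, at 88.8 ± 7.01 and 89.8 ± 8.18 RPKM, and Rbck1, a subunit of the linear ubiquitin ligase, at 60.3 ± 4.95 and 53.4 ± 0.375 RPKM (SD, n = 2 each). The count of 4 at an unadjusted p under 0.05 was 7 without a filter on low values. The count also moved with some libraries left out, as did the share of all tested genes. The share without a filter is not given here, so counts from any of those fits were not compared.

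Markers of lymphoid, dendritic and stromal cells were near 0, with summed levels of at most 3.42 RPKM for 7 T-cell genes, 0.312 for 6 B-cell genes, 1.12 for 6 dendritic genes and 0.322 for 6 stromal genes. Most of the T-cell sum was Cd247. The 7 macrophage markers summed to 28.0 and 32.2 RPKM in control cultures, and 25.8 and 12.2 in miR-125b cultures, nearly all from Emr1, while Marco and Msr1 were at 0 throughout. Emr1 thus had miR-125b replicate 2 lowest. Csf1r, the other macrophage marker that passed the filter, did not, at 0.735 and 1.32 RPKM in control against 1.12 and 0.814 with miR-125b. Of the tested members Tnfrsf1b, Tnfrsf14, Tnfsf8, Tnfrsf13b and Tnfrsf12a had that library lowest, and also Ltbr and Tnfrsf1a, whose groups overlapped. The share of all tested genes with that library lowest is not given here, so the list is a description only. The part of Emr1 in the members' differences was not tested.

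**Figure D4:**
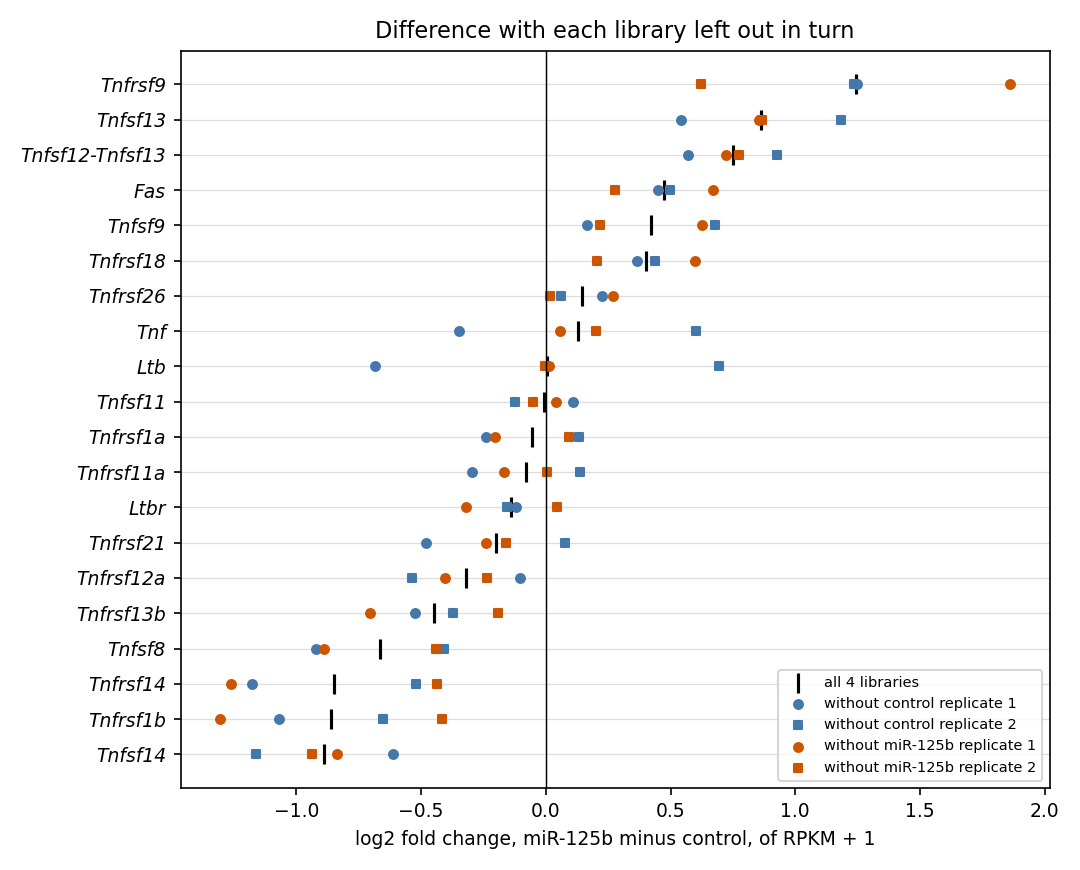
Log2 fold change (miR-125b minus control, of RPKM + 1) of the 20 tested members with all libraries (black tick) and with each library left out. Blue points leave out a control and orange points a miR-125b library, circles replicate 1 and squares replicate 2. Ltb moves from -0.68 to 0.69 with the choice of control, and Tnfrsf9, Tnfrsf1b and Tnfrsf14 move further with the choice of miR-125b library than with that of control.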

How the data were processed

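Poly(A) RNA of 4 cultures was sequenced, and the authors deposited 1 table of RPKM values per library, with 26982 RefSeq transcript rows. Per the submitters' processing notes, coordinates are those of mm9. No aligner or counter is named in the sources used here. Reads were recovered by dividing RPKM times exon length by its smallest step in each library, and 100% of values came out whole (tolerance 0.001 reads). The longest row was kept for each gene. The value of 1 marker gene is not reported here. Reads shared by overlapping rows cannot be separated, and strand use is not stated.

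Genes at 1 RPKM or more in at least 2 libraries were tested with limma 3.58.1 in R 4.3.3 (trended prior, 2-sided, group only) on log2(RPKM + 1), which understates changes of low genes. The fit had 2 residual degrees of freedom, and p-values measure only the spread between these cultures. The procedure was tested on simulated data, where false calls at an adjusted p under 0.05 exceeded the nominal share, so that calls made under the alternatives may hold more false ones than the threshold states. The members and lists were chosen with earlier results of these data known. Every tested member was named, of each list the 4 genes with the smallest p and the 3 most abundant, and untested members with 10 reads or more by range and the rest by maximum. Sites came from the longest 3′ UTR of protein-coding GENCODE M21 transcripts (GRCm38), joined for 98.9% of genes. Alternatives were other pseudocounts, filters, scalings, rows and priors, limma-voom, a GC correction, a replicate block and each library left out.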

Additional observations from a re-analysis of the deposited data

How the results depend on the processing

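For a transcript of 1 kb, levels up to 3 reads, or 0.238 to 0.289 RPKM depending on the library, could not be told from 0. Across 17 alternatives 13 of the 20 tested members kept their direction in each one that held them, and 7 did not. The count of genes called was 137 without a filter and 0 to 91 with libraries left out (91 without replicate 1 and 25 without replicate 2 of miR-125b, 1 without control replicate 2), and that of members called 0 to 1. With a replicate block it was 12 genes, 0 of them members, and the block changed no member's call. The replicate numbers are not stated to mark a shared batch, so they were not taken as pairs. Deviations of same-numbered libraries had r = 0.021 across genes. This rests on a single difference per condition and cannot exclude a shared preparation. Members at an unadjusted p under 0.05 were 2 without a filter, where the share of all genes at that p is not given here. With libraries left out such counts were not compared, since the share of all tested genes moved as well. Members with separated groups were 12 to 18 of the 20 with libraries left out, where fewer libraries are compared and 61.3% to 83.7% of all tested genes were separated. Genes under other symbols at an unadjusted p under 0.05 were 1 with the shortest row and 1 with the GC correction, and adaptors 7 without a filter. Ltb was -0.014 with median-of-ratios scaling, and with the GC correction Ltbr was 0.012 and Tnfrsf1a 0.0089. With libraries left out, log2 fold changes ran from -0.68 to 0.69 for Ltb, -0.32 to 0.045 for Ltbr, -0.35 to 0.60 for Tnf, -0.30 to 0.14 for Tnfrsf11a, -0.24 to 0.13 for Tnfrsf1a, -0.48 to 0.078 for Tnfrsf21 and -0.12 to 0.11 for Tnfsf11. Except where fewer libraries or other genes entered by construction, the cause was not tested.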
